A study of Homo sapiens with 12 samples.

Results

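The ADAM, ADAMTS and TIMP genes encode enzymes that cut proteins at the cell surface and in the extracellular matrix, together with their inhibitors. Their mRNA was measured here in adipocytes with and without knockdown of linc-ADAIN, a long intergenic non-coding RNA of human adipose tissue. Members were all genes of the deposited table whose whole symbol was ADAM, ADAMTS or ADAMTSL followed by a number, or TIMP1 to TIMP4. This gave 50 of the 28901 named genes, and 42 of them had at least 10 counts over the 12 libraries and were tested among 17173 genes.

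The cells were of the line ASC52telo hTERT, human stromal cells from adipose tissue made immortal with telomerase, and had been differentiated into adipocytes over 14 days, first in a mix with rosiglitazone and dexamethasone and then in maintenance medium with dexamethasone but no rosiglitazone. Before differentiation all cells had received a lentiviral shRNA vector that also carries ZsGreen, and ZsGreen-positive cells had been sorted. The groups were scramble shRNA (scramble), scramble shRNA with LPS (scramble_LPS), linc-ADAIN shRNA (KD) and linc-ADAIN shRNA with LPS (KD_LPS), where LPS, a bacterial lipopolysaccharide that triggers inflammatory signalling, was given at 100 ng/mL for 4 h on day 14. The comparisons ask how linc-ADAIN depletion changes the cells at rest and after an inflammatory stimulus. Each group had 3 libraries from this line, triplicates of a single experiment, so the p-values measure only the spread between these libraries, which may be technical.

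ADAMs are membrane-anchored metalloproteinases that release the outer parts of cell surface proteins, as ADAM17 does for tumour necrosis factor and ADAM10 for Notch receptors. ADAMTS enzymes are secreted, carry thrombospondin repeats and act on the matrix, where one group cuts proteoglycans such as versican and aggrecan and another removes the amino-terminal propeptides of fibrillar collagens. ADAMTSL proteins resemble them but lack the protease domain, and the TIMPs are secreted inhibitors of metalloproteinases. In adipose tissue these proteins take part in the matrix remodelling that goes with adipocyte differentiation and tissue growth.

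Members fell into 22 ADAM genes, of which 16 were tested, 19 ADAMTS genes, of which 17 were tested, 5 ADAMTSL genes and 4 TIMP genes, all tested. ADAM2, ADAM5, ADAM6, ADAM7, ADAM30, ADAMTS19 and ADAMTS20 were listed at 0 in all 12 libraries, and ADAM18 had 4 counts in 1 KD library. Over the 12 libraries 35 members averaged 20 counts or more. The members together took 0.556% to 0.600% of all counts in scramble libraries, 0.514% to 0.528% in scramble_LPS, 0.374% to 0.404% in KD and 0.338% to 0.347% in KD_LPS, so that the 4 groups did not overlap. Counts on named genes totalled 28.4 to 53.8 M per library, in units of 1e6.

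Levels are given as CPM, the counts of a gene per 1e6 counts of its library, after scaling of the libraries by edgeR's TMM method, and levels of different genes are compared as CPM per kb of transcript. On that scale, in scramble libraries, TIMP1 was the most abundant member with a mean of 2768 CPM per kb, ahead of TIMP3 with 228, TIMP2 with 180.2 and ADAMTS1 with 87.5. ADAM12, an ADAM of mesenchymal cells, followed at 63.1 CPM per kb and ADAM9 at 40.4. The general sheddases ADAM17 and ADAM10 stood at 23.7 and 12.9 CPM per kb. Among the 35 members, those ranked 23 and lower in scramble were under 1 CPM per kb, among them ADAMTS8 at 0.654 and ADAMTS9 at 0.0884. Most counts of the members came from the 4 TIMPs, so the share given above largely follows these genes. Without division by length they summed to a median of 3844 CPM in scramble, 3299 in scramble_LPS, 2284 in KD and 1989 in KD_LPS.

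**Figure D1:**
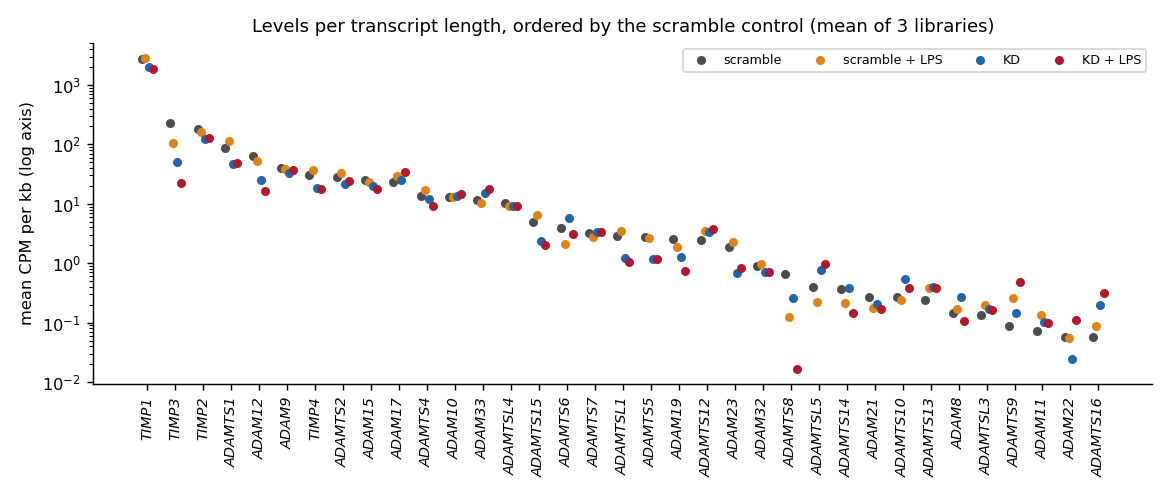
Mean level of each member that averaged 20 counts or more, in CPM per kb of the canonical transcript on a log axis, with 1 point for each of the 4 groups (mean of 3 libraries). TIMP1 stands highest in all 4 groups, at 2768 CPM per kb in scramble, and the points of TIMP3 spread from 228 in scramble to 22.6 in KD_LPS.

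Adipocyte markers moved with the knockdown and are given here beside all KD results. The summed level of the 10 adipocyte markers (ADIPOQ, PLIN1, PLIN4, FABP4, LPL, CIDEC, PPARG, CEBPA, LIPE and PNPLA2) was 3494 to 4792 CPM in scramble, 4001 to 4736 in scramble_LPS, 766 to 2054 in KD and 625 to 1334 in KD_LPS. At an adjusted p under 0.05 in edgeR, 8 of the 10 fell without LPS and none rose, beside 14.3% of all genes lower and 11.2% higher. With LPS 9 fell and none rose, beside 14.1% of all genes lower and 12.7% higher. ADIPOQ, PLIN1 and FABP4 were present in every library, whereas LPL was near 0, at no more than 2.36 CPM. The 10 stromal and preadipocyte markers, 9 of them tested, summed to 5393 to 6467 CPM in scramble and 7307 to 8287 in KD, with 4 higher (DCN, DPP4, LUM and PDGFRA) and 4 lower (ENG, PDGFRB, POSTN and THY1). Smooth muscle and pericyte markers summed to 112 to 115 CPM in scramble and 31.2 to 37.8 in KD, and endothelial markers to 15.7 to 18.3 and 10.5 to 11.1. Leukocyte markers summed to 5.71 to 7.53 CPM in scramble and 56.9 to 87.0 in KD. In KD nearly all of the sum came from CD163, with a mean of 68.6 CPM there and 4.33 CPM in scramble. TYROBP was at 0 in every library and PTPRC did not exceed 0.316 CPM. In bulk RNA, fewer cells of a type and less RNA per cell cannot be told apart, and the part of these markers in the results on the members was not tested.

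After linc-ADAIN KD without LPS, 16 of the 42 tested members changed at an adjusted p under 0.05 (edgeR quasi-likelihood test), 2 of them higher and 14 lower. Among all tested genes 11.2% were higher and 14.3% lower by the same rule. At a difference of at least 2-fold, 7 members remained, all lower, against 7.26% of all genes in either direction. With LPS in both arms, 20 members changed, 5 higher and 15 lower, where 12.7% of all genes were higher and 14.1% lower. By the 2-fold rule 12 members changed, 2 higher and 10 lower, and the share of all genes was 8.30% in either direction. The median log2 fold change of the 42 members was -0.09 without LPS and -0.34 with LPS, while the median of all tested genes was 0.01 and 0.02.

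All 4 TIMPs fell with KD, with and without LPS. TIMP3, the inhibitor that binds to the extracellular matrix and that inhibits ADAM17 and several ADAMTS enzymes beside matrix metalloproteinases, had the largest fall of the 4. Its level was 838, 1127 and 1185 CPM in the scramble libraries and 224, 215 and 258 CPM in the KD libraries. In the LPS arm it was 405, 481 and 550.1 CPM in scramble_LPS and 101, 97.0 and 114 CPM in KD_LPS. Every KD library was below every scramble library, and every KD_LPS library was below all 9 others. The log2 fold change was -2.18 ± 0.13 (SE) without LPS, a 4.52-fold lower level (adjusted p = 7.3e-10), and -2.20 ± 0.13 with LPS (adjusted p = 4.1e-10).

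TIMP3 (chr22:32801705-32863041, plus strand, GRCh38) also fell with LPS in each arm, the only TIMP to do so. The log2 change with LPS was -1.13 ± 0.12 in scramble (adjusted p = 4e-06) and -1.16 ± 0.13 in KD (adjusted p = 3.8e-06). The group means were 1050.1 ± 186 CPM in scramble (SD, n = 3), 479 ± 72.8 in scramble_LPS, 232 ± 22.4 in KD and 104 ± 8.81 in KD_LPS. The difference between the KD effects with and without LPS, the interaction, was -0.03 ± 0.17 on the log2 scale (adjusted p = 1.0), so that a departure of the joint change from the sum of the separate ones was not detectable within this error.

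TIMP1, a secreted inhibitor with many matrix metalloproteinase targets, was at 2435, 1941 and 2011 CPM in scramble and 1579.8, 1365 and 1719.6 CPM in KD. The groups did not overlap, and the log2 fold change was -0.45 ± 0.09 (adjusted p = 0.0012). With LPS the levels were 2316, 2099 and 2079 CPM in scramble_LPS and 1328, 1425 and 1466 CPM in KD_LPS, a log2 fold change of -0.62 ± 0.09 (adjusted p = 4.9e-05). LPS itself gave a log2 difference for TIMP1 of 0.02 ± 0.09 in scramble and -0.15 ± 0.09 in KD, neither past the threshold.

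TIMP2, which besides inhibiting metalloproteinases helps to activate pro-MMP2 at the cell surface, was at 669.7, 702 and 603 CPM in scramble and at 455, 449 and 469.98 CPM in KD. Its log2 fold change was -0.52 ± 0.07 without LPS (adjusted p = 2.3e-05) and -0.37 ± 0.07 with LPS (adjusted p = 0.0007). TIMP4, a TIMP with a narrow tissue range that includes fat and heart, was at 31.2, 33.2 and 44.6 CPM in scramble and at 24.7, 20.4 and 21.0 CPM in KD, again without overlap. With LPS TIMP4 stood between 43.0 and 45.3 CPM in scramble_LPS and between 19.0 and 24.1 CPM in KD_LPS. The log2 fold change of TIMP4 was -0.72 ± 0.13 (adjusted p = 0.00038) and -1.06 ± 0.13 with LPS (adjusted p = 5.9e-06). For TIMP4 the log2 difference with LPS was 0.27 ± 0.13 in scramble (adjusted p = 0.2), which passed the threshold without scramble replicate 3 (0.45, adjusted p = 0.022), and -0.07 ± 0.13 in KD. TIMP2 had log2 differences with LPS of -0.15 ± 0.07 in scramble and 0.01 ± 0.07 in KD, neither past the threshold.

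**Figure D2:**
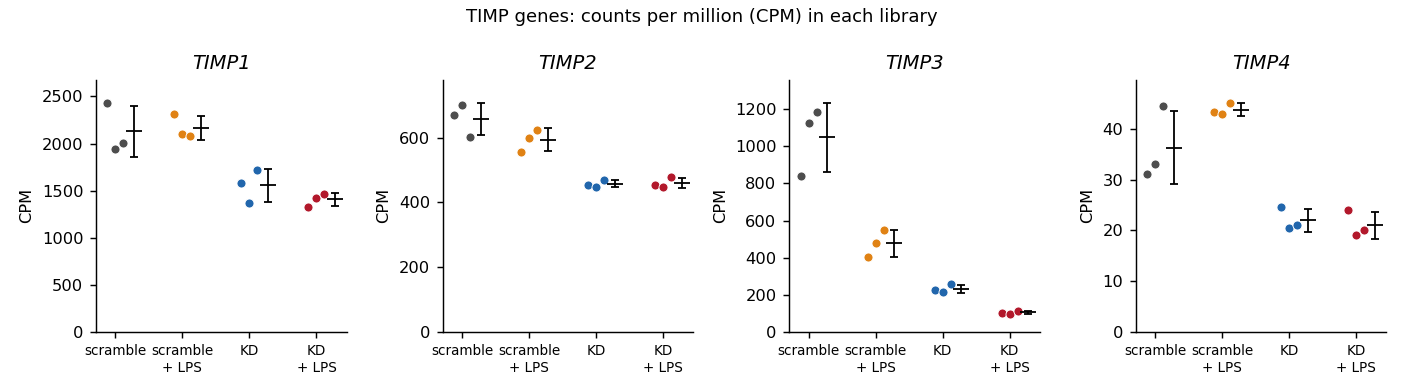
Level of the 4 TIMP genes (CPM, linear axis from 0) in each of the 12 libraries, by group, with points for libraries and the black mark for the mean ± SD of 3 libraries. With and without LPS all KD libraries lie below all scramble libraries, and TIMP3 drops at each step from a mean of 1050.1 CPM in scramble to 104 in KD_LPS.

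TIMP1, TIMP3 and TIMP4 each lie within an intron of a synapsin gene on the opposite strand, SYN1, SYN3 and SYN2, and whether the authors' counting used strand is not given in the sources used here. SYN3 had 0 to 19 counts per library, SYN1 84 to 657 and SYN2 100 to 354, against at least 3242 counts for TIMP3, 41705 for TIMP1 and 569 for TIMP4.

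To show what the falling members carry in front of their start sites, the 250 bases upstream were taken from RefSeq (GRCh38.p14), where 29 of the 42 tested members had an entry. Given here are TIMP3 and TIMP4 with ADAM12, the ADAM with the most counts, each 5′ to 3′ on the strand of its gene. Capitals mark GC boxes (GGGCGG on either strand) and CCAAT boxes (CCAAT on either strand), and the windows are chr22:32801455-32801704 (plus strand), chr3:12158913-12159162 (minus strand) and chr10:126388478-126388727 (minus strand).
TIMP3: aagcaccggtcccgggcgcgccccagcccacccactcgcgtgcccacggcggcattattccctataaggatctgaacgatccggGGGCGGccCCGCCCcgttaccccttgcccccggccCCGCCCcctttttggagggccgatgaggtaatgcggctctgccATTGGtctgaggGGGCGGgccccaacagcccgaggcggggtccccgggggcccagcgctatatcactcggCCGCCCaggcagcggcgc
TIMP4: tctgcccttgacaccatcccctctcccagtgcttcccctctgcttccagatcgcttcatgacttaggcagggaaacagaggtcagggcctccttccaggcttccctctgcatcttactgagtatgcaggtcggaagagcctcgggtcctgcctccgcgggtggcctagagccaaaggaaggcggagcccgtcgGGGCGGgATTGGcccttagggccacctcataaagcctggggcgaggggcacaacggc
ADAM12: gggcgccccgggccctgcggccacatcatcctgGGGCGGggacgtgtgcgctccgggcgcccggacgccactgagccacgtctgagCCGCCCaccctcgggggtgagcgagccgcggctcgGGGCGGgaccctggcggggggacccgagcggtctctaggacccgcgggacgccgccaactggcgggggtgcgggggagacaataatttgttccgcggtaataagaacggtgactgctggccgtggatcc
The TIMP3 window held 5 GC boxes and 1 CCAAT box, that of TIMP4 1 of each, and that of ADAM12 3 GC boxes. A GC box was present in 23 of the 29 members (79.3%) and in 42.3% of all 27305 promoters, and the median GC content was 73.6% for the members and 58.0% for all. Of the members lower in KD with and without LPS, 9 had an entry, and 7 of these (77.8%) held a GC box, a share like that of the 29. The 27305 promoters were not limited to genes tested here. A CCAAT box was present in 9 of the 29 (31.0%) and in 33.0% of all. An AP-1 motif (TGANTCA, either strand) was found in 1 member, ADAMTS12, and in 6.60% of all promoters, a TATA box (TATAAA, either strand) in 2 members and 11.1% of all, and the NF-kappaB consensus in 4 members (ADAM10, ADAM17, ADAM19 and ADAMTS3) and 9.57% of all. These matches describe the letters of the windows and are not evidence of binding.

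Of the ADAMs with a catalytic site, 12 in all and 11 tested, 4 fell and none rose without LPS. Of all genes 14.3% fell and 11.2% rose in that comparison. With LPS 3 of these ADAMs fell and 2 rose, where 14.1% of all genes fell and 12.7% rose. ADAM12, which cleaves insulin-like growth factor binding proteins and is known from mesenchymal and fat precursor cells, was at 631, 466 and 407 CPM in scramble and at 206, 201 and 185 CPM in KD. After LPS it was at 494, 358 and 408 CPM in scramble_LPS and at 143, 119 and 127 CPM in KD_LPS. The highest KD library was below the lowest scramble library, with a log2 fold change of -1.34 ± 0.14 without LPS (adjusted p = 5.8e-07) and -1.70 ± 0.14 with LPS (adjusted p = 2.6e-08). Within KD cells ADAM12 (chr10:126012381-126388477, minus strand) also fell with LPS, by 0.61 ± 0.14 on the log2 scale (adjusted p = 0.005), whereas in scramble the difference was -0.26 ± 0.13 (adjusted p = 0.26). The interaction was not past the threshold (-0.35 ± 0.19, adjusted p = 0.52).

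ADAM19, a sheddase of neuregulins, had the same order of groups at a lower level. Its 3 scramble libraries held 18.1, 17.7 and 14.1 CPM and its KD libraries 8.61, 7.09 and 8.96 CPM. In scramble_LPS it was at 12.5, 10.5 and 14.0 CPM and in KD_LPS at 4.10, 5.16 and 5.34 CPM. No KD library reached the lowest library of its control, and the log2 fold change was -1.02 ± 0.17 (adjusted p = 0.00013) and -1.34 ± 0.17 with LPS (adjusted p = 8e-06). ADAM19 fell with LPS in KD by 0.75 ± 0.17 on the log2 scale (adjusted p = 0.0059), and the LPS difference in scramble was -0.43 ± 0.16 (adjusted p = 0.096). It overlaps CYFIP2 and NIPAL4 on the other strand, and the part of this overlap in its level was not tested.

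ADAM23, which has no catalytic site and acts as an adhesion protein, was at 14.2, 10.6 and 10.4 CPM in scramble and at 3.92, 5.20 and 3.85 CPM in KD. With LPS it was at 16.7, 11.2 and 15.6 CPM in scramble_LPS and between 5.24 and 5.46 CPM in the 3 KD_LPS libraries. The log2 fold change was -1.44 ± 0.19 without LPS (adjusted p = 1.5e-05) and -1.44 ± 0.19 with LPS (adjusted p = 1.2e-05). Of the 5 tested ADAMs without a catalytic site, or not coding, ADAM23 was the only one past the threshold in either KD comparison, and none passed it with LPS in either arm. The other 4 were ADAM11, ADAM22, ADAM29 and ADAM32, with at most 3.53 CPM in any library.

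Smaller falls were seen for the broadly expressed sheddases ADAM9 and ADAM15. ADAM9 was at 172.3, 172.3 and 154 CPM in scramble and at 121, 148 and 132 CPM in KD, and its log2 fold change without LPS was -0.31 ± 0.09 (adjusted p = 0.01). This call was lost without KD replicate 1 (adjusted p = 0.063) and, with no TMM scaling, the log2 fold change was -0.20 (adjusted p = 0.11). With LPS the ADAM9 difference was -0.06 ± 0.09. ADAM9 overlaps TM2D2 on the other strand, which had 1025 to 2370 counts per library against at least 4210 for ADAM9. ADAM15 was at 79.8, 72.2 and 66.5 CPM in scramble and between 57.8 and 58.9 CPM in KD, a log2 difference of -0.32 ± 0.11 (adjusted p = 0.036) that was lost without scramble replicate 1 or 2 or without any 1 of the 3 KD libraries (adjusted p from 0.074 to 0.16) and, with no TMM scaling, was -0.21 (adjusted p = 0.18). With LPS ADAM15 fell by 0.41 ± 0.11 on the log2 scale (adjusted p = 0.0084), a call lost without KD_LPS replicate 3 (adjusted p = 0.052).

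The main sheddases of the cell surface did not fall. ADAM10 was at 154, 146 and 131 CPM in scramble, 151, 132 and 145 in scramble_LPS, 139, 167 and 147 in KD and 162, 156 and 168 in KD_LPS. No comparison of ADAM10 passed the threshold, with log2 differences from KD of 0.07 ± 0.09 without LPS and 0.19 ± 0.09 with LPS (adjusted p = 0.12), and from LPS of -0.01 ± 0.09 in scramble and 0.10 ± 0.09 in KD. With no TMM scaling the KD difference of ADAM10 with LPS was 0.27 (adjusted p = 0.029). ADAM17, also called TNF-alpha converting enzyme, rose with LPS in each arm. It was at 96.7, 105 and 109.9 CPM in scramble and 125, 129.7 and 129.8 CPM in scramble_LPS, and at 114, 118 and 101 CPM in KD and 149, 144 and 155 CPM in KD_LPS. All LPS libraries stood above all libraries without LPS, and the log2 change was 0.30 ± 0.08 in scramble (adjusted p = 0.012) and 0.43 ± 0.08 in KD (adjusted p = 0.00088). Without scramble replicate 1 the first of these calls was lost (adjusted p = 0.072).

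The KD difference of ADAM17 was 0.10 ± 0.08 on the log2 scale without LPS (adjusted p = 0.4) and 0.22 ± 0.08 with LPS (adjusted p = 0.042). The latter call was lost in 8 of the 12 fits that left out a library, those without scramble replicate 2, KD replicate 2, any scramble_LPS or any KD_LPS library (adjusted p from 0.05 to 0.13), with no filter on low counts (adjusted p = 0.068) and with the replicate number as a block (adjusted p = 0.058). ADAM17 overlaps IAH1 on the other strand, which had 748 to 1522 counts per library against at least 3927 for ADAM17. ADAM33, a membrane ADAM linked to airway and smooth muscle biology, was at 26.1, 41.8 and 39.3 CPM in scramble_LPS and at 62.6, 64.2 and 59.3 CPM in KD_LPS. It was higher in every KD_LPS library than in any scramble_LPS library, with a log2 fold change of 0.80 ± 0.16 (adjusted p = 0.0011), while without LPS the difference was 0.40 ± 0.16 (adjusted p = 0.08).

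**Figure D3:**
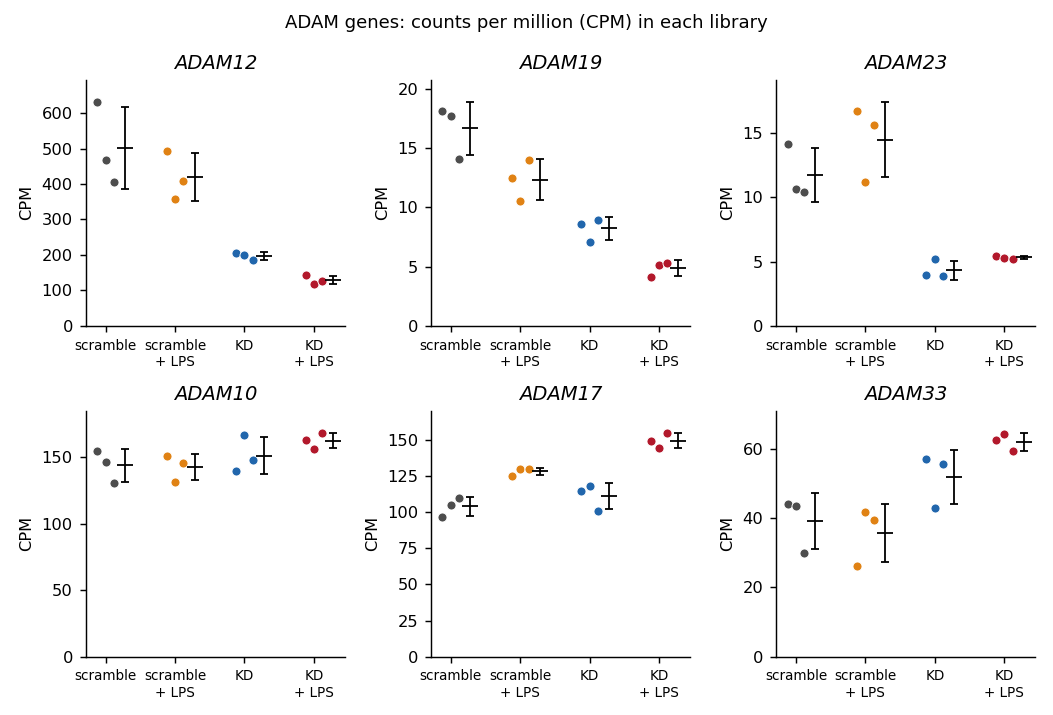
Level of 6 ADAM genes (CPM, linear axes from 0) in each of the 12 libraries, by group, with the black mark for the mean ± SD of 3 libraries. ADAM12, ADAM19 and ADAM23 are lower in all KD libraries than in their controls, ADAM10 varies between 131 and 168 CPM throughout, and ADAM17 is higher in the LPS libraries of each arm.

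Of the 7 ADAMTS enzymes that cleave proteoglycans, 6 were tested. Of these, 3 fell without LPS and 5 with LPS, with none higher, where 14.3% and 14.1% of all genes were lower. ADAMTS1, which cuts versican and aggrecan and was the member of this group with the most CPM per kb, was at 414, 484 and 464 CPM in scramble and at 237, 276 and 223 CPM in KD. LPS-treated cells had 591, 595 and 595 CPM in scramble_LPS and 258, 269.7 and 215 CPM in KD_LPS. The KD and KD_LPS libraries overlapped with each other and lay below all scramble libraries. The log2 fold change of ADAMTS1 with KD was -0.89 ± 0.09 (adjusted p = 1e-06) and -1.26 ± 0.10 with LPS (adjusted p = 9.6e-09). LPS raised it by 0.39 ± 0.09 on the log2 scale in scramble (adjusted p = 0.0084, and 0.05 without scramble replicate 1, where the call was lost), and in KD the difference was 0.02 ± 0.09. The interaction of -0.37 ± 0.13 did not pass the threshold (adjusted p = 0.24).

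ADAMTS5, the other main aggrecanase beside ADAMTS4, lies 72.5 kb from ADAMTS1 on chromosome 21. It was at 24.1, 28.2 and 27.4 CPM in scramble and at 11.3, 11.03 and 11.04 CPM in KD. In scramble_LPS it was at 26.6, 27.0 and 23.9 CPM and in KD_LPS at 11.8, 10.6 and 11.99 CPM. Each KD library was well under each scramble library, and KD changed ADAMTS5 by -1.25 ± 0.11 on the log2 scale (adjusted p = 1.1e-07) and -1.17 ± 0.11 with LPS (adjusted p = 2.1e-07). ADAMTS5 had an LPS difference of -0.04 ± 0.11 in scramble and 0.04 ± 0.11 in KD.

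ADAMTS15, a versicanase related to ADAMTS1, was at 28.4, 27.9 and 32.2 CPM in scramble and at 19.7, 13.7 and 9.06 CPM in KD. With LPS it was at 34.8, 45.5 and 36.7 CPM in scramble_LPS and at 20.1, 8.97 and 7.06 CPM in KD_LPS. The KD libraries differed among themselves but stayed under the scramble libraries, with a log2 fold change of -1.06 ± 0.29 (adjusted p = 0.0096) that was lost without KD replicate 3 (adjusted p = 0.054). With LPS it was -1.69 ± 0.29 (adjusted p = 0.00022), and -2.29 without KD_LPS replicate 1 and -1.43 without KD_LPS replicate 3.

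ADAMTS4, an aggrecanase induced by inflammatory cytokines in many cells, responded to LPS in opposite directions in the 2 arms. It was at 140.7, 132 and 128 CPM in scramble and at 138, 194 and 177 CPM in scramble_LPS. In KD it was at 124, 116.7 and 116.7 CPM and in KD_LPS at 98.9, 91.4 and 84.4 CPM. With LPS 2 of the 3 scramble libraries lay above all scramble libraries without it and the third lay among them, while all KD_LPS libraries were below all KD libraries. The log2 change with LPS was 0.35 ± 0.10 in scramble (adjusted p = 0.029) and -0.38 ± 0.10 in KD (adjusted p = 0.019).

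The interaction for ADAMTS4 (chr1:161184302-161199054, minus strand) was -0.72 ± 0.14 on the log2 scale (adjusted p = 0.016). It was the 1 member called among the 42, where 1.28% of all tested genes were called, and the call was lost without scramble replicate 2 (adjusted p = 0.055) and without KD_LPS replicate 3 (adjusted p = 0.057). The value lay between -0.86 and -0.62 over the fits that left out a library. The rise in scramble was lost without scramble replicate 2 or 3 or scramble_LPS replicate 2 or 3 (adjusted p from 0.092 to 0.16) and in the fit of 6 libraries (adjusted p = 0.052), and the fall in KD without KD replicate 1 or KD_LPS replicate 2 or 3 (adjusted p from 0.056 to 0.096). KD lowered ADAMTS4 by 0.89 ± 0.10 on the log2 scale with LPS (adjusted p = 2.4e-06), and without LPS the difference was -0.16 ± 0.10 (adjusted p = 0.27).

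ADAMTS8 and ADAMTS9, both scarce, moved in opposite directions with LPS. ADAMTS8, next to ADAMTS15 at a distance of 20035 bases on chromosome 11, was at 1.08, 3.69 and 2.34 CPM in scramble and 0.281, 0.429 and 0.656 CPM in scramble_LPS. It was at 1.70, 0.241 and 0.914 CPM in KD, and its 3 KD_LPS libraries held 7 counts together, at most 0.0849 CPM. The log2 change with LPS in scramble was -2.37 ± 0.66 (adjusted p = 0.022), a call lost without scramble replicate 2 or scramble_LPS replicate 1 or 2 (adjusted p from 0.067 to 0.16). ADAMTS8 was lower in KD_LPS than in scramble_LPS by a ratio of 7.31 (95% exact counting interval 3.31 to 19.1, adjusted p = 0.013 in edgeR) and lower than in KD by a ratio of 13.3 (6.24 to 33.9, adjusted p = 0.0029), intervals that cover counting error only. The first of these calls was lost without scramble_LPS replicate 3 (adjusted p = 0.055) and in the fit of 6 libraries (adjusted p = 0.097). For LPS in KD the fitted log2 change, -3.84, was -3.13 without KD replicate 1 and -4.31 without KD replicate 2.

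ADAMTS9, a secreted protease of versican, was at 0.626, 1.16 and 0.236 CPM in scramble and rose to 1.92, 1.45 and 2.55 CPM in scramble_LPS. It was at 1.12, 0.854 and 1.33 CPM in KD and rose to 3.34, 3.44 and 4.08 CPM in KD_LPS, the highest libraries of the 12. The log2 change was 1.54 ± 0.45 in scramble (adjusted p = 0.029) and 1.71 ± 0.45 in KD (adjusted p = 0.016). In scramble the value was 2.18 without scramble replicate 2 and 1.15 without scramble replicate 3. The call in scramble was lost without scramble or scramble_LPS replicate 1 or 3 (adjusted p from 0.053 to 0.12) and in the fit of 6 libraries (adjusted p = 0.068), and the call in KD without KD replicate 2 (adjusted p = 0.063) or KD_LPS replicate 3 (adjusted p = 0.056). KD differences of ADAMTS9 were 0.70 ± 0.45 without LPS and 0.87 ± 0.43 with LPS, neither past the threshold.

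**Figure D4:**
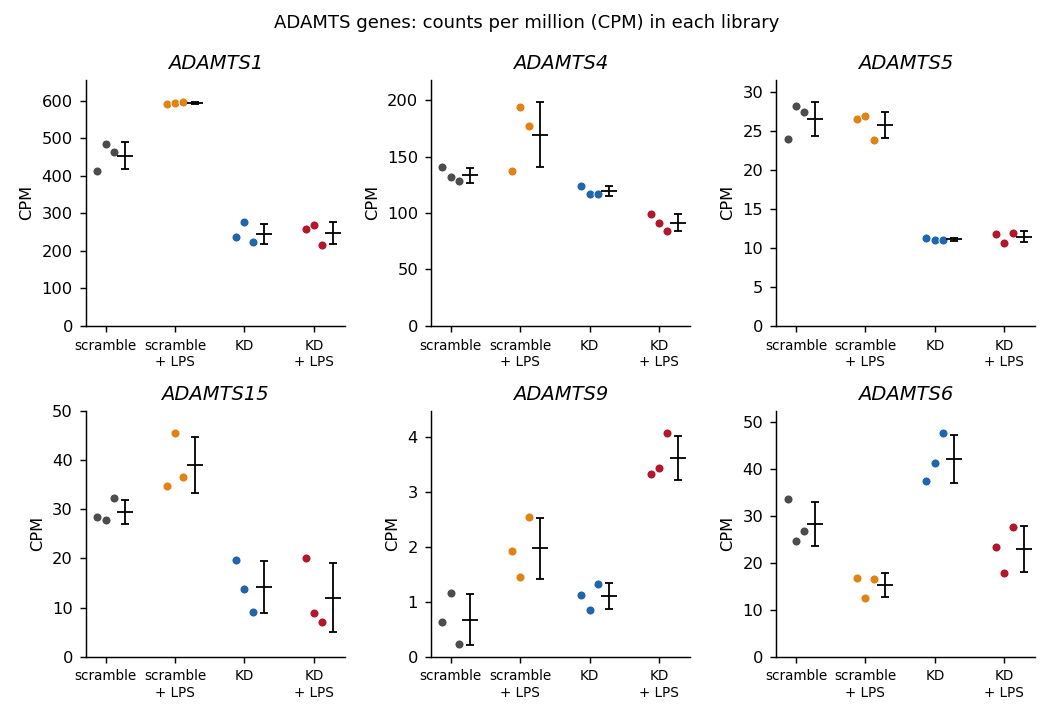
Level of 6 ADAMTS genes (CPM, linear axes from 0) in each of the 12 libraries, by group, with the black mark for the mean ± SD of 3 libraries. ADAMTS1, ADAMTS5 and ADAMTS15 lie lower in every KD library than in its controls, and ADAMTS4 reaches 194 CPM in scramble_LPS but at most 98.9 CPM in KD_LPS.

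Among the 3 ADAMTS enzymes that process procollagens, ADAMTS2, the main procollagen I N-proteinase, fell with KD. It was at 190.5, 184 and 194 CPM in scramble and at 143, 144 and 155 CPM in KD, without overlap, and the log2 fold change was -0.36 ± 0.07 (adjusted p = 0.00064) and -0.46 ± 0.07 with LPS (adjusted p = 5e-05). LPS raised ADAMTS2 in scramble by 0.23 ± 0.07 on the log2 scale (adjusted p = 0.03), a call lost without scramble replicate 1 or 2 or any scramble_LPS library (adjusted p from 0.061 to 0.14) and with no TMM scaling (adjusted p = 0.061). ADAMTS14 had at most 2.67 CPM and ADAMTS3 had at most 0.316 CPM, and neither was called in any comparison.

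Of the 9 ADAMTS enzymes of other or less known substrates 8 were tested, and in each KD comparison 2 were higher, none was lower and 6 were not called, where 11.2% of all genes were higher without LPS and 12.7% with LPS. ADAMTS6, a protease of fibrillin and latent TGF-beta binding proteins, was at 33.6, 24.6 and 26.8 CPM in scramble and at 37.5, 41.2 and 47.7 CPM in KD. After LPS it was at 16.8, 12.4 and 16.6 CPM in scramble_LPS and at 23.3, 17.9 and 27.7 CPM in KD_LPS. All KD libraries lay above their controls, and in each arm all LPS libraries lay below those without LPS. The log2 fold change with KD was 0.57 ± 0.16 (adjusted p = 0.012) and 0.58 ± 0.16 with LPS (adjusted p = 0.012). The log2 change of ADAMTS6 with LPS was -0.89 ± 0.16 in scramble (adjusted p = 0.00092) and -0.88 ± 0.16 in KD (adjusted p = 0.00098), with an interaction of 0.01 ± 0.23. The first KD call was lost without scramble replicate 2 (adjusted p = 0.068) or KD replicate 3 (adjusted p = 0.059), and the second without scramble_LPS replicate 2 (adjusted p = 0.064) or KD_LPS replicate 3 (adjusted p = 0.081).

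ADAMTS12, which degrades cartilage oligomeric matrix protein, was at 25.2, 20.8 and 18.4 CPM in scramble, 34.0, 26.0 and 31.0 in scramble_LPS, 29.5, 26.7 and 30.5 in KD and 34.0, 26.9 and 37.4 in KD_LPS. Only the scramble libraries stood apart, below the rest. It rose with KD without LPS by 0.43 ± 0.14 on the log2 scale (adjusted p = 0.029) and with LPS in scramble by 0.50 ± 0.14 (adjusted p = 0.021), 2 comparisons that share the scramble libraries. The call with KD was lost without scramble replicate 2 or 3 or KD replicate 1 or 3 (adjusted p from 0.073 to 0.14), and that with LPS without scramble replicate 2 or 3 or scramble_LPS replicate 1 or 3 (adjusted p from 0.067 to 0.1). ADAMTS16, at 0.153 to 0.609 CPM in scramble_LPS and 0.949 to 2.65 CPM in KD_LPS, passed the threshold with LPS (log2 fold change 1.85 ± 0.67, adjusted p = 0.048). That call was lost in 10 of the 12 fits that left out a library, all but those without KD replicate 2 or KD_LPS replicate 3 (adjusted p from 0.053 to 0.27, with a log2 fold change down to 1.25 without KD_LPS replicate 2), in the fit of 6 libraries (adjusted p = 0.051) and with the replicate number as a block (adjusted p = 0.059).

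Of the ADAMTSL proteins, ADAMTSL1 (punctin) fell and ADAMTSL5 was higher with KD under LPS. ADAMTSL1 was at 20.6, 24.6 and 21.8 CPM in scramble and at 9.13, 10.7 and 8.79 CPM in KD, and at 19.1, 29.2 and 32.6 CPM in scramble_LPS and at 8.80, 8.54 and 7.06 CPM in KD_LPS. No library overlapped between KD and its control, and the log2 fold change was -1.23 ± 0.17 (adjusted p = 2.2e-05) and -1.72 ± 0.17 with LPS (adjusted p = 4e-07). ADAMTSL5, a microfibril-binding member, was at 0.230, 0.661 and 0.891 CPM in scramble_LPS and at 2.91, 2.00 and 3.02 CPM in KD_LPS, a log2 fold change of 2.15 ± 0.44 (adjusted p = 0.0011), while without LPS the difference was 0.94 ± 0.42 (adjusted p = 0.11). ADAMTSL4, the ADAMTSL gene with the most CPM per kb and known from the fibrillin matrix of the eye, was not called in any comparison, with KD differences of -0.20 ± 0.16 without LPS and -0.03 ± 0.16 with LPS. It overlaps MCL1 on the other strand, which had 4901 to 19674 counts per library against 925 to 2947 for ADAMTSL4, and the part of this overlap in its level was not tested. ADAMTSL1 and ADAMTSL5 overlap SAXO1 and PLK5 on the other strand, and the part of these overlaps in their levels was not tested.

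With LPS, 9 of the 42 members changed in scramble, 6 higher and 3 lower, where 5.28% of all tested genes were higher and 8.11% lower. In KD 8 changed, 2 higher and 6 lower, where 5.21% of all genes were higher and 6.59% lower. By the 2-fold rule 3 members changed in each arm, ADAMTS8, ADAMTS9 and TIMP3, against 2.49% of all genes in scramble and 2.21% in KD. The count of 9 in scramble was 5 without scramble replicate 1, scramble replicate 2 or scramble_LPS replicate 3. ADAM17, ADAMTS9, ADAMTS6, ADAMTS8 and TIMP3 were called in the same direction in each arm, and ADAMTS4 in opposite directions. The adipocyte markers summed to like ranges with and without LPS in scramble, where none of the 10 was called, and 2 of them (PLIN4 and PPARG) fell with LPS in KD.

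**Figure D5:**
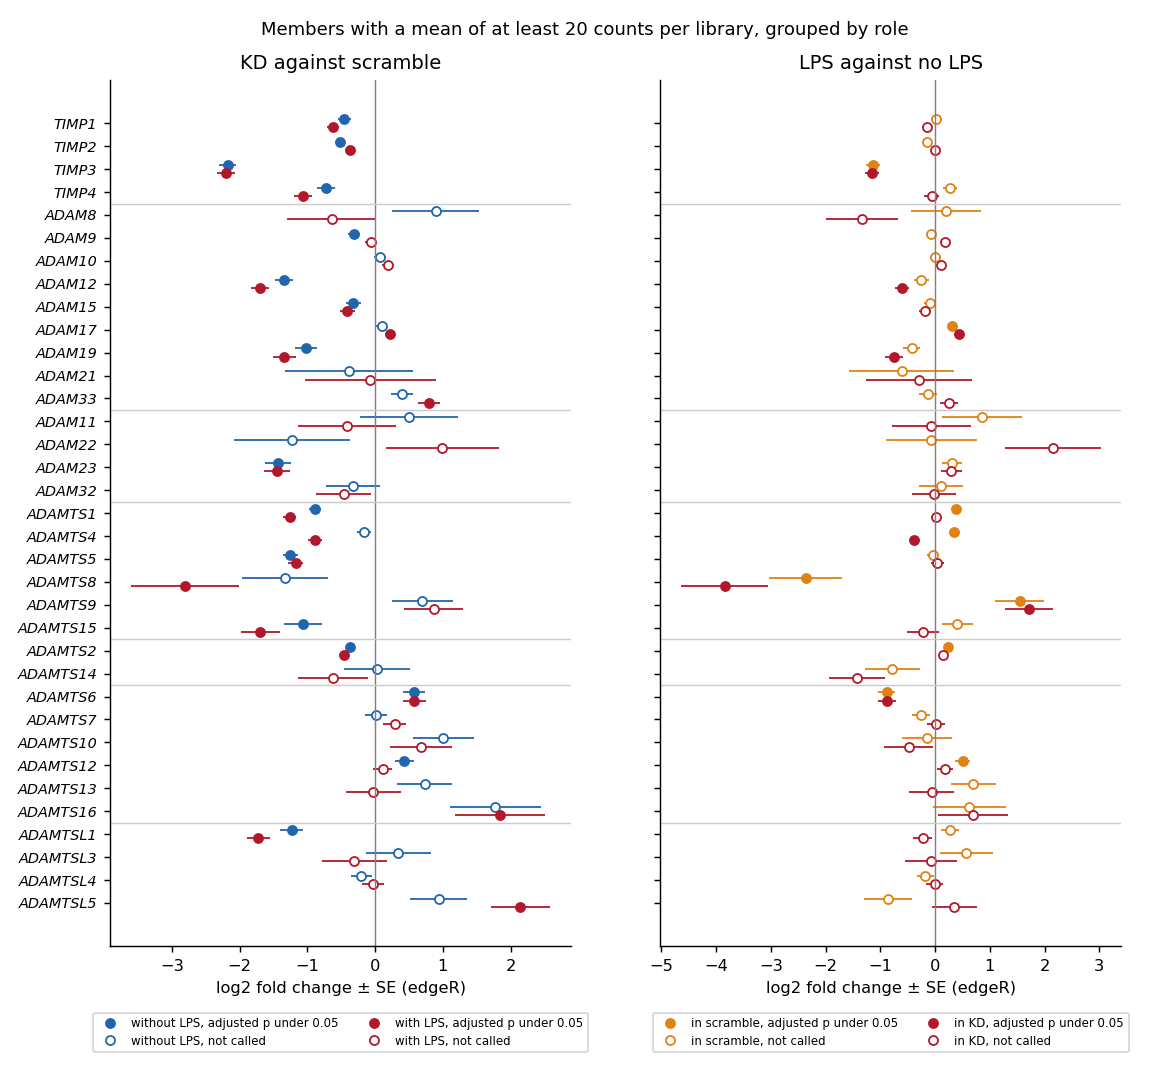
Log2 fold change ± SE from edgeR for the 35 members that averaged 20 counts or more, grouped by role, for KD against scramble (left) and LPS against no LPS (right), with filled points for an adjusted p under 0.05 and open points for the others. On the left 14 filled points without LPS and 15 with LPS lie below 0, and on the right ADAMTS4 has filled points on either side of 0.

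Genes that act with the members were read from a list of 53, of which 52 were tested. In KD without LPS 16 were higher and 12 lower, beside 11.2% and 14.3% of all genes, and with LPS 18 were higher and 10 lower, beside 12.7% and 14.1%. Of the 7 other inhibitors, receptors and modifiers, 5 rose in each KD comparison, namely the protease trap A2M, the membrane inhibitor RECK, PAPLN, SFRP1 and the fucosyltransferase POFUT2. A2M was at 21.8, 29.6 and 42.3 CPM in scramble and at 167, 200.4 and 179.8 CPM in KD, a log2 fold change of 2.55 ± 0.17 (adjusted p = 2.3e-09). RECK was at 100.1, 109 and 106 CPM in scramble and at 141, 152 and 147 CPM in KD, a log2 fold change of 0.48 ± 0.07 (adjusted p = 4.9e-05). Both moved opposite in direction to the 4 TIMPs. LRP1, an endocytic receptor that clears TIMP3 and several ADAMTS enzymes, fell by 0.30 ± 0.09 on the log2 scale (adjusted p = 0.016), and by 0.66 ± 0.09 with LPS (adjusted p = 1.3e-05). B3GLCT, the remaining gene of this list, fell by 0.88 ± 0.20 without LPS (adjusted p = 0.0028). With LPS its difference was -0.36 (adjusted p = 0.22).

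Some partners of the sheddases were also called with KD. Of all genes, 11.2% were higher and 14.3% lower without LPS, and 12.7% higher and 14.1% lower with LPS. The iRhom RHBDF2, which escorts ADAM17 to the cell surface, was at or under 0.132 CPM in every scramble and scramble_LPS library and at 1.19 to 2.52 CPM in all KD and KD_LPS libraries (log2 fold change 4.48 ± 0.68, adjusted p = 6.1e-05 without LPS). The more abundant RHBDF1 had a mean of 29.5 CPM in scramble and 41.5 in KD, and was called higher with KD only without LPS. Of the 6 tetraspanins that partner ADAM10, TSPAN14 and TSPAN15 fell with KD in each comparison, TSPAN15 by 1.82 ± 0.24 on the log2 scale without LPS (adjusted p = 1.2e-05). TSPAN5 was called higher with KD under LPS, with a mean of 25.5 CPM in scramble_LPS and 32.8 in KD_LPS. FURIN, which removes the prodomains of ADAM and ADAMTS enzymes, fell by 0.38 ± 0.10 (adjusted p = 0.0078), the only 1 of the 4 proprotein convertases to pass the threshold.

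Of the 16 matrix substrates and cofactors, 15 were tested, and without LPS 5 rose and 4 fell, beside 11.2% and 14.3% of all genes. Versican, VCAN, the substrate of ADAMTS1, ADAMTS4, ADAMTS5, ADAMTS9 and ADAMTS15, was at 762, 547 and 593 CPM in scramble and at 414, 475 and 415 CPM in KD, a log2 fold change of -0.54 ± 0.12 (adjusted p = 0.0027). Aggrecan, ACAN, was at 0.551, 0.552 and 0.473 CPM in scramble and at 9.48, 15.3 and 11.6 CPM in KD, a log2 fold change of 4.52 ± 0.38 (adjusted p = 5.5e-08). COL1A1 and COL3A1, whose procollagens ADAMTS2 processes, rose by 0.65 ± 0.14 (adjusted p = 0.0024) and 0.52 ± 0.09 (adjusted p = 0.00038) on the log2 scale. Of the 17 cell surface substrates 4 rose and 3 fell without LPS, beside 11.2% and 14.3% of all genes. The 2 TNF receptors of the list moved in opposite directions. TNFRSF1A fell by 0.98 ± 0.09 (adjusted p = 2.2e-07), and TNFRSF1B rose from a mean of 20.2 CPM in scramble to 45.7 in KD. CDH1, also called higher, was at no more than 0.5755 CPM in any library, and its groups overlapped.

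In the response to LPS, 3 of these 52 genes were higher and 12 lower in scramble, and 3 higher and 3 lower in KD, beside 5.28% of all genes higher and 8.11% lower in scramble and 5.21% and 6.59% in KD. CD44, a hyaluronan receptor shed by ADAM10 and ADAM17, rose in each arm, by 0.64 ± 0.07 in scramble (adjusted p = 3e-06) and by 0.86 ± 0.07 in KD (adjusted p = 8.8e-08) on the log2 scale. For 3 of the 52, EREG, RECK and THBS1, the interaction of KD and LPS passed the threshold, each with a positive value, beside 1.28% of all genes. EREG, a growth factor released by ADAM17, had the largest of these, 1.26 ± 0.17 (adjusted p = 0.00073).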

How the data were processed

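RNA-seq was done on poly(A) RNA of 12 libraries, 3 in each of 4 groups, prepared with a stranded mRNA kit. The deposited values are estimated counts per gene name, made by the authors with kallisto 0.44.0 on GRCh38 and whole numbers in the file, with no normalization for depth or length. The annotation release, the step from transcripts to genes and the use of strand are not given in the sources used here, and estimated counts can be shared out between overlapping or similar genes. The unnamed row, 0.235% to 0.306% of the counts, was dropped.

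The members and gene lists were chosen with earlier results of these data known. In R 4.3.3, named genes with at least 10 counts over the 12 libraries were kept, scaled by TMM and fitted in edgeR 4.0.16 with 1 coefficient for each group. The contrasts were tested with quasi-likelihood F statistics, adjusted by Benjamini-Hochberg over all 17173 genes, namely KD without LPS, KD with LPS, LPS in scramble, LPS in KD and their interaction. Contrasts that share a group are not independent. A gene was called at an adjusted p under 0.05, the stricter rule added a 2-fold difference, and an SE is the log2 fold change divided by the square root of F. Levels per kb used the canonical transcript of GENCODE release 44. The steps were tested on simulated data.

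TIMP1 to TIMP4, ADAM10 and ADAM17 were named in each comparison, with every called member of at least 20 mean counts. Alternatives were DESeq2 1.42.0, RLE factors, no TMM scaling, no filter, edgeR's filterByExpr, the 6 libraries of a comparison alone, a block for the replicate number, and the omission of each library in turn. Libraries of a group correlated in log2 CPM at 0.984 to 0.993. The level of linc-ADAIN, the target of the shRNA, was not analysed here, so the labels were not checked by it.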

Additional observations from a re-analysis of the deposited data

Results flagged for a closer look

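The effect of linc-ADAIN KD on ADAMTS4, an aggrecanase, differed between cells with and without LPS by the interaction term of the edgeR fit, with a log2 difference of -0.725 ± 0.14 (adjusted p = 0.016). With LPS all 3 KD_LPS libraries were below all 3 scramble_LPS libraries, and the same holds without LPS for KD and scramble, at a smaller distance. The call was lost without scramble replicate 2 (adjusted p = 0.055) and without KD_LPS replicate 3 (adjusted p = 0.057). Single libraries that stand apart were not tested for in groups of 3.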

How the results depend on the processing

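Of 71 values of named members, 43 kept their direction and their side of the threshold under every alternative run, and of 54 called values 34 kept their call and 0 changed direction. DESeq2 gave 5 members, against 3, at 2-fold for LPS in KD. With 1 library left out, called members for LPS in scramble numbered 5 to 9, those at 2-fold 1 to 3, and those for the interaction 0 to 1. Values near 0 changed sign, none of them called. These were ADAM10 with LPS in scramble in the fit of 6 libraries (0.001), TIMP1 with LPS in scramble with no TMM scaling (-0.002) and TIMP2 with LPS in KD with no TMM scaling (-0.047) or no filter (-0.002). When 1 library was left out the ranges were -0.002 to 0.128 for ADAM10 with KD without LPS, -0.077 to 0.043 for ADAM10 and -0.038 to 0.132 for TIMP1 with LPS in scramble, -0.024 to 0.024 for TIMP2 and -0.182 to 0.022 for TIMP4 with LPS in KD, and -0.133 to 0.113 for the TIMP3 interaction. The cause was not tested. Without TMM scaling the median of all genes was 0.12 in KD without LPS and 0.10 with LPS, so all KD differences shift upward by about that much. With the replicate number as a block, 18 rather than 20 members were called for KD with LPS, the calls of ADAM17 and ADAMTS16 being lost. Same-numbered libraries were not treated as pairs in the main fit, since the labels state no pairing. Their deviations correlated above 0.1 in 5 of 18 cases (3 of 36 for other pairs, medians 0.008 and 0.016). Between libraries with and without LPS, same numbers 1, 2 and 3 correlated at 0.271, 0.117 and 0.088 in scramble. In KD the values were 0.116, -0.111 and 0.117. Of the 12 libraries 8 were closest to their own number. This is a hint of pairing from the data and not from the design, and whether the numbers mark pairs was not tested. Depth limits members such as ADAMTS8, ADAMTS9 and ADAMTS16, with few counts.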
